A study of Mus musculus with 8 samples.

Results

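The 39 Hox genes of the mouse lie in 4 clusters and encode homeodomain transcription factors that give cells of the body axis and limbs their position. Within each cluster the genes are numbered as paralogs, with low numbers used toward the head and high numbers toward the tail and the ends of the limbs. The bones of the face and skull roof form largely from cells that do not use Hox genes. Here the Hox genes were read in MC3T3-E1 cells, an osteoblast line from mouse calvaria, the roof of the skull. Members were the genes whose name in the scanner files was Hoxa, Hoxb, Hoxc or Hoxd followed by a number, on spots that were not controls. The rule took 38 of 28786 genes, with 49 probes on 58 spots, and Hoxc11 was not analysed here. Each gene was represented by its probe with the highest mean Cy3 signal, and 11 genes had more than 1 probe.

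The osteoblasts were grown with tumour cells that overexpressed Jagged1, a membrane ligand of Notch receptors, or carried the control vector. The co-cultures were kept in DMSO, the solvent, or in MRK-003, a gamma-secretase inhibitor that keeps Notch receptors from being cut and so from signalling. The 4 groups are named here by tumour cell and treatment: vector DMSO and Jagged1 DMSO without the inhibitor, vector MRK-003 and Jagged1 MRK-003 with it. Every group had 2 biological replicates, 1 array each, and all groups shared the 1 osteoblast line and the presence of tumour cells. The sources used here do not name the tumour line or its species, the dose or time of treatment, or a step that parted osteoblasts from tumour cells. Each sample was labelled with Cy3 and a commercial reference RNA pooled from mouse cell lines with Cy5, and a level is the log2 ratio of the sample over that reference, centred on the median of each array. Dyes were not swapped, so a level carries dye bias, which differences between groups do not. In bulk RNA, fewer cells of a type and less RNA per cell cannot be told apart.

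The replicates lay on 2 slides, all replicates numbered 1 on slide 1 and all numbered 2 on slide 2. Slide 2 was dimmer: the median Cy3 signal was 165 to 204 on the slide 1 arrays and 76.5 to 117 on the slide 2 arrays, and 85.6% to 89.0% against 70.9% to 78.0% of spots were well above background. Of 12 osteoblast markers, 11 were well above background on all 8 arrays. Markers of other cell types passed the same flag: 11 of 14 epithelial markers (Esrp1 on none), 10 of 10 macrophage markers and 3 of 6 endothelial markers (Tie1 on none) on all 8 arrays. Levels of single cell type markers over the reference are not given. In vector DMSO the summed processed Cy3 signal was 8370 to 16380 over 14 epithelial and 11830 to 24060 over 10 macrophage markers. It was 586 to 2785 over 6 endothelial and 1058000 to 1264000 over 12 osteoblast markers. The flag marks signal over the slide background only, and the part of RNA from other cells in any Hox signal was not tested.

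Each probe was a 60-base oligonucleotide, and the first 30 bases of 5 probes on which the results turn are given here, 5′ to 3′. For all 38 chosen probes the longest run shared with a probe of another Hox gene had a median of 9 bases. Probes were set against probes only, so likeness to the rest of another Hox RNA was not read. The Hoxb3 and Hoxa9 probes, not printed here, shared a run of 22 identical bases, and were the only 2 with a run of 15 bases or more. The Hoxd10 probe shared a run of 14 bases with the Hoxa9 probe. The highest share of identical bases was 66.7%, for the Hoxb13 probe against a Hoxa13 probe.
Hoxa2: tctatgtgattttcctgaaaaacaaaacag
Hoxa5: gtgtaattaatgctgttgtagaggtgactt
Hoxb6: tcgagtctcatttcgtccatgtcccccgtg
Hoxa13: gaccactagttaatggattaaaaggtggag
Hoxd10: gcgagcgccgcctagagatcagtaagagcg
On build mm7, per the files, these probes lie at chr6:52125851-52125910, minus strand (Hoxa2) and chr6:52165365-52165424, minus strand (Hoxa5). The others lie at chr11:96410288-96410347, plus strand (Hoxb6), chr6:52222226-52222285, minus strand (Hoxa13) and chr2:74537939-74537998, plus strand (Hoxd10). The files give no exon or UTR for a probe. A probe with a long run in common with another gene can take up RNA of both, and whether the Hoxb3 and Hoxa9 probes did was not tested.

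Of the 38 Hox genes, 27 were well above background in Cy3 on all 8 arrays. That is 71.1%, against 71% of all 28786 genes, so the share of Hox probes with signal was near that of any gene. A further 8 passed on 4 to 7 arrays and 3 on none, and 8.67% of all genes passed on none. On slide 1 each array had 35 of the 38 above background. On slide 2 the count was 27 for vector DMSO and 31 for each of the other groups. With slide 1 alone 35 Hox genes were above background on every array and with slide 2 alone 27. The reference channel was above background on 7 or 8 arrays for all 3 genes that passed on none in Cy3. They were Hoxa11, which patterns the forearm, and Hoxc8 and Hoxc12, of the trunk and tail.

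By cluster, 10 of 11 Hoxa genes, 7 of 10 Hoxb, 5 of 8 Hoxc and 5 of 9 Hoxd were above background on all 8 arrays. By paralog number, 5 of 8 genes numbered 1 to 3 were, 13 of 15 numbered 4 to 8, and 9 of 15 numbered 9 to 13. The flag was not confined to paralogs of the head and neck: Hoxa13, Hoxc13, Hoxd11 and Hoxd12, which act in digits, hair and limb, passed on every array. Most of these were dim. Mean Cy3 signals before background subtraction were 58.0 (Hoxd11), 59.8 (Hoxc13), 61.2 (Hoxa13) and 164 (Hoxd12). Hoxd11, Hoxc13 and Hoxa13 were the dimmest of the genes on all 8 arrays, and Hoxa11, which passed on none, had 37.6. The other Hoxa13 probe passed on 1 array only. These counts describe 38 probes and were not tested.

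**Figure D1:**
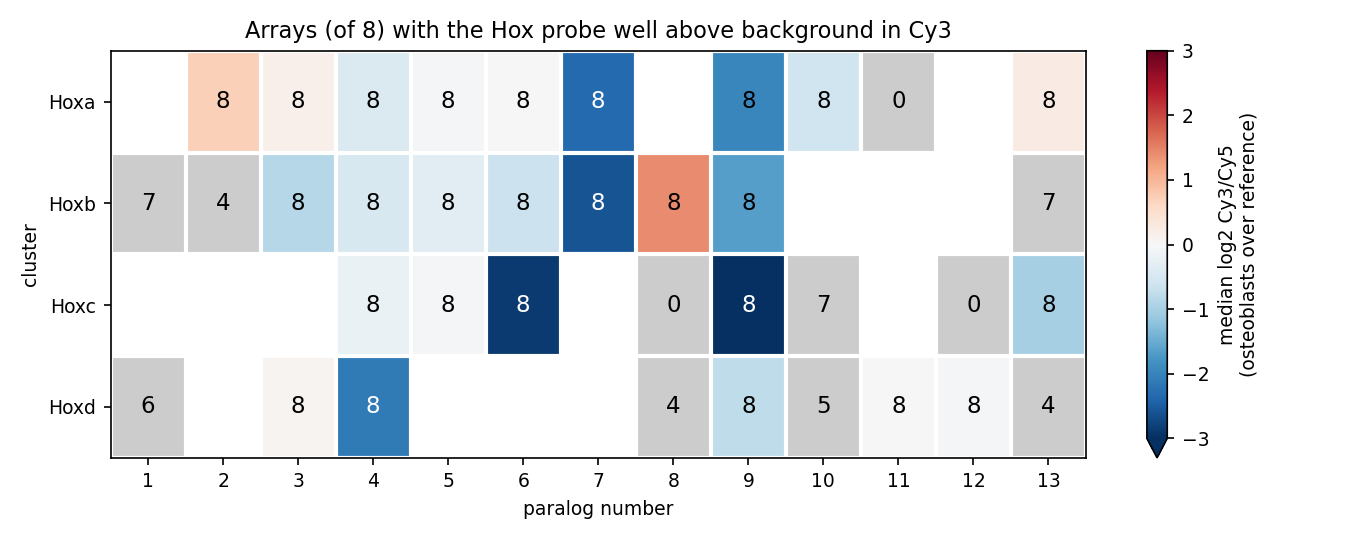
Of the Hox genes 37 are shown, by cluster (rows) and paralog number (columns). The number in a tile is the count of arrays, of 8, on which the chosen probe was well above background in Cy3; colour is the median log2 Cy3 over Cy5 over 8 arrays for genes above background on all 8, grey tiles are genes on fewer, and white places have no gene or one not reported here. The tiles with 8 span clusters a to d and paralogs 2 to 13, and the bluest are Hoxc9 (-5.38, beyond the scale) and Hoxc6 (-2.87).

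Levels over the reference were low for most of the genes. Of the 26 Hox genes well above background in both channels on all 8 arrays, 5 had a median level above 0 (19.2%), against 47.5% of 19928 genes in the same position, and the median of the Hox medians was -0.54 against -0.02. The 5 were Hoxa2 at 0.72, Hoxa13 at 0.26, Hoxa3 at 0.15, Hoxd3 at 0.07 and Hoxa6, which lay at 0.00036 and so at the reference. Hoxb8 stood at 1.41, but its reference signal was above background on 7 arrays only, its level was 0.29 and 0.47 under the 2 normexp corrections, and its other probe read 0.044. Both corrections add an offset of 50 to each channel, which by itself draws the ratio of a dim probe toward 0. Hoxc9 was lowest at -5.38, with 0.151% of the same genes lower, followed by Hoxc6 at -2.87, Hoxb7 at -2.59, Hoxa7 at -2.34 and Hoxd4 at -2.11. The median was -0.23 over 10 Hoxa genes, -0.75 over 6 Hoxb, -0.995 over 5 Hoxc and -0.065 over 5 Hoxd genes. A ratio sets each gene against its own level in the reference, so the order of these values is no order of abundance. The mean Cy3 signal of the 27 probes, before background subtraction, ran from 58.0 (Hoxd11) to 874.6 (Hoxc4). The files place the 60-base Hoxc4 probe at chr15:103022266-103022308, a stretch shorter than the probe. Whether its signal came from Hoxc4 RNA alone was not tested.

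In the values that follow, each group has its slide 1 array and then its slide 2 array. Hoxa2, which gives the hyoid arch its identity and holds back membranous bone where it is forced on, read 0.84 and 1.30 in vector DMSO, 0.14 and 0.53 in Jagged1 DMSO, 0.56 and 0.91 in vector MRK-003 and 0.60 and 0.92 in Jagged1 MRK-003. Hoxa3, needed for thymus and parathyroid, read 0.12 and 0.21 in vector DMSO, 0.15 and 0.23 in Jagged1 DMSO, 0.031 and 0.16 in vector MRK-003 and 0.034 and 0.14 in Jagged1 MRK-003. Hoxa2 and Hoxa3 were above the reference on all 8 arrays by the chosen probe, and the other Hoxa3 probe was below it on 5 of 8. On each slide the Jagged1 DMSO array was the lowest of the 4 for Hoxa2.

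Hoxa4, a gene of the neck, read -0.46 and -0.15 in vector DMSO, -0.58 and -0.72 in Jagged1 DMSO, -0.41 and -0.051 in vector MRK-003 and -0.58 and -0.049 in Jagged1 MRK-003. Hoxa5, which shapes the lower neck vertebrae and the lung, read 0.19 and 0.68 in vector DMSO, -0.38 and -0.23 in Jagged1 DMSO, -0.24 and 0.17 in vector MRK-003 and -0.48 and 0.19 in Jagged1 MRK-003. Hoxa6, a gene of the trunk, read -0.11 and -0.0068 in vector DMSO, 0.0039 and -0.0032 in Jagged1 DMSO, 0.16 and -0.29 in vector MRK-003 and 0.17 and 0.053 in Jagged1 MRK-003. Hoxa5 was highest in vector DMSO on both slides, and Hoxa4 and Hoxa5 were higher on slide 2 by 0.27 and 0.43 in the mean of 4 arrays. Hoxa7, a trunk gene, read -2.18 and -2.08 in vector DMSO, -2.35 and -2.02 in Jagged1 DMSO, -2.61 and -2.32 in vector MRK-003 and -2.46 and -2.39 in Jagged1 MRK-003. Hoxa9, known for its role with Meis1 in leukaemia, read -1.97 and -1.25 in vector DMSO, -2.31 and -2.07 in Jagged1 DMSO, -1.59 and -2.77 in vector MRK-003 and -1.95 and -1.91 in Jagged1 MRK-003. The single vector MRK-003 array on slide 2 was the lowest for Hoxa9, whose 8 values spanned 1.51.

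Hoxa10, a gene of the lumbar axis and uterus that also promotes osteoblast genes, read -0.52 and -0.51 in vector DMSO, -0.55 and -0.44 in Jagged1 DMSO, -0.93 and -0.65 in vector MRK-003 and -0.85 and -0.79 in Jagged1 MRK-003. Hoxa13, needed for digits and the genital tract, read 0.16 and -0.28 in vector DMSO, 0.43 and 0.63 in Jagged1 DMSO, 0.35 and 0.36 in vector MRK-003 and 0.11 and -0.19 in Jagged1 MRK-003. The 4 MRK-003 arrays were below the 4 DMSO arrays for Hoxa10, while for Hoxa13 the 2 arrays of Jagged1 DMSO were the highest. A further Hoxa13 probe was above background on 1 array only.

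Among Hoxb genes, Hoxb3, of the hindbrain, read -0.70 and -0.88 in vector DMSO, -0.10 and 0.021 in Jagged1 DMSO, -0.83 and -1.78 in vector MRK-003 and -1.07 and -1.50 in Jagged1 MRK-003. Hoxb4, used to expand blood stem cells, read -0.045 and -1.27 in vector DMSO, -0.19 and -0.62 in Jagged1 DMSO, -0.33 and -0.97 in vector MRK-003 and -0.36 and -0.91 in Jagged1 MRK-003. Hoxb5, of the trunk nervous system and gut, read -0.16 and -0.30 in vector DMSO, -0.077 and -0.38 in Jagged1 DMSO, -0.28 and -1.26 in vector MRK-003 and -0.66 and -0.85 in Jagged1 MRK-003. For Hoxb3 both Jagged1 DMSO arrays lay near the reference and above the other 6 arrays. Hoxb6, a trunk gene, read -0.51 and -0.64 in vector DMSO, -0.33 and -0.43 in Jagged1 DMSO, -0.64 and -1.37 in vector MRK-003 and -0.84 and -1.35 in Jagged1 MRK-003. Hoxb7, also of the trunk, read -2.56 and -3.25 in vector DMSO, -2.52 and -2.93 in Jagged1 DMSO, -2.50 and -2.60 in vector MRK-003 and -2.66 and -2.58 in Jagged1 MRK-003. Hoxb6 was highest in Jagged1 DMSO on both slides, and Hoxb7 was at -2.50 or lower on every array.

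Hoxb8, known for keeping myeloid progenitors dividing, read 1.41 and 1.42 in vector DMSO, 1.59 and 2.79 in Jagged1 DMSO, 0.81 and 1.10 in vector MRK-003 and 1.22 and 1.49 in Jagged1 MRK-003. Hoxb9, of the thoracic axis, read -1.54 and -1.77 in vector DMSO, -1.41 and -2.08 in Jagged1 DMSO, -1.24 and -2.07 in vector MRK-003 and -1.49 and -2.04 in Jagged1 MRK-003. The high Hoxb8 value of 2.79 came from 1 array, and without it the other 7 lay between 0.81 and 1.59. Of the 7 Hoxb genes above background throughout, 6 were higher on slide 1, with a median slide difference of 0.37, while 7 of 10 Hoxa genes were higher on slide 2.

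Hoxc4, of the neck, read -0.21 and -0.37 in vector DMSO, -0.051 and -0.11 in Jagged1 DMSO, -0.11 and -0.32 in vector MRK-003 and -0.18 and -0.24 in Jagged1 MRK-003. Hoxc5, its neighbour in the cluster, read -0.16 and -0.46 in vector DMSO, 0.066 and -0.016 in Jagged1 DMSO, 0.0066 and -0.26 in vector MRK-003 and -0.042 and -0.061 in Jagged1 MRK-003. Hoxc6, of the upper trunk, read -2.36 and -3.80 in vector DMSO, -2.57 and -3.41 in Jagged1 DMSO, -2.46 and -2.995 in vector MRK-003 and -2.75 and -3.25 in Jagged1 MRK-003. Hoxc4 and Hoxc5 stayed within 0.46 of the reference, and Hoxc6 was lower on slide 2 by 0.83. Hoxc9, which sets thoracic motor neuron identity, read -5.46 and -5.38 in vector DMSO, -5.80 and -5.37 in Jagged1 DMSO, -5.29 and -5.15 in vector MRK-003 and -5.84 and -4.79 in Jagged1 MRK-003. Hoxc13, of hair follicles, read -1.13 and -0.86 in vector DMSO, -1.32 and -0.44 in Jagged1 DMSO, -1.35 and -0.72 in vector MRK-003 and -1.69 and -0.59 in Jagged1 MRK-003. For Hoxc13 all 4 groups overlapped, and the highest Hoxc9 value was -4.79.

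Hoxd3, which shapes the atlas, read 0.086 and 0.32 in vector DMSO, -0.019 and 0.15 in Jagged1 DMSO, 0.22 and -0.048 in vector MRK-003 and 0.055 and -0.034 in Jagged1 MRK-003. Hoxd4, its neighbour, read -2.23 and -2.86 in vector DMSO, -1.64 and -1.75 in Jagged1 DMSO, -2.37 and -2.06 in vector MRK-003 and -1.89 and -2.17 in Jagged1 MRK-003. Hoxd9, of the limbs, read -0.74 and -0.86 in vector DMSO, -0.68 and -0.77 in Jagged1 DMSO, -0.67 and -1.02 in vector MRK-003 and -0.74 and -1.04 in Jagged1 MRK-003. For Hoxd4 the 2 Jagged1 DMSO arrays were higher than the other 6. Hoxd11, which patterns the forearm with Hoxa11, read 0.36 and -0.38 in vector DMSO, 0.0033 and -0.030 in Jagged1 DMSO, 0.061 and -0.17 in vector MRK-003 and 0.057 and -0.030 in Jagged1 MRK-003. Hoxd12, of the digits, read -0.13 and 0.056 in vector DMSO, -0.019 and -0.11 in Jagged1 DMSO, 0.098 and 0.11 in vector MRK-003 and -0.16 and -0.11 in Jagged1 MRK-003. Both stayed within 0.38 of the reference, and for Hoxd12 the 2 vector MRK-003 arrays were the highest.

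**Figure D2:**
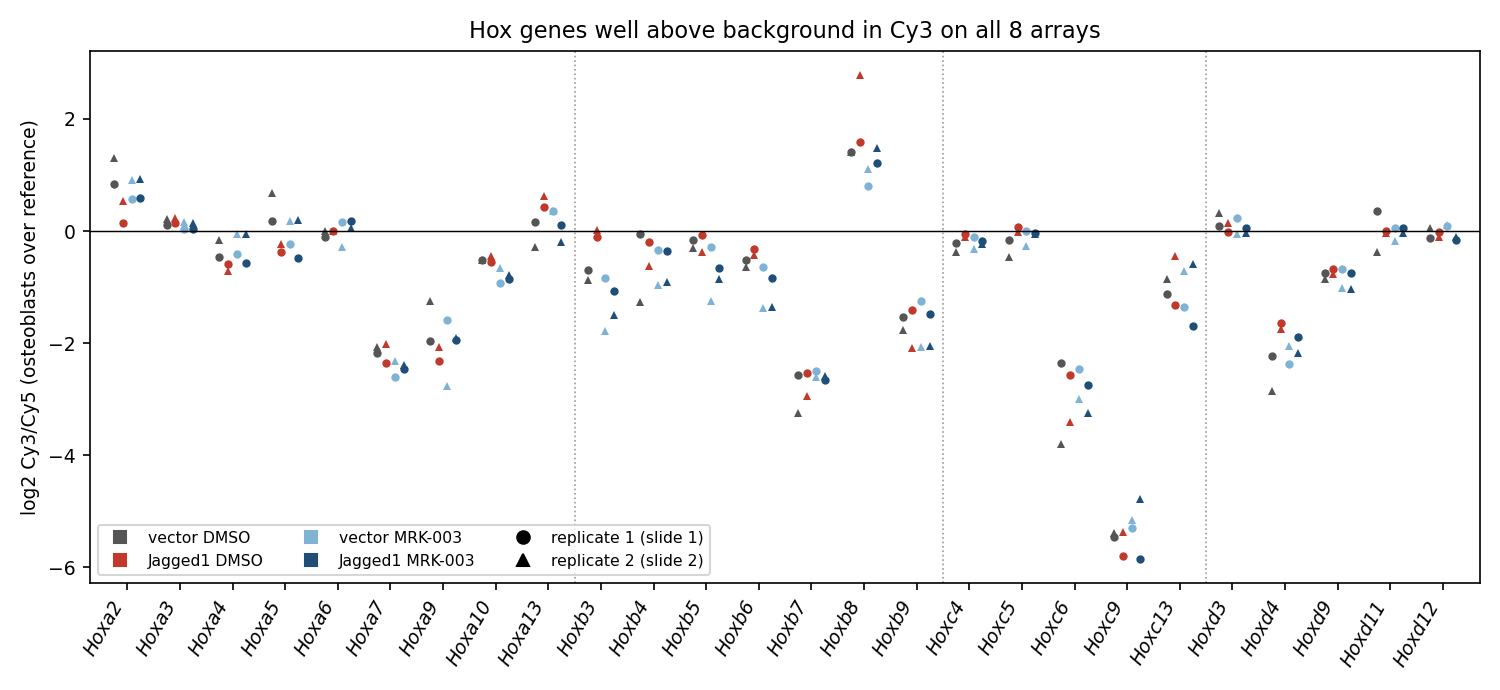
Log2 Cy3 over Cy5 of 26 of the 27 Hox genes well above background in Cy3 on all 8 arrays, in cluster order (dotted lines divide the clusters). Each gene has 8 points, with colour for the group, circles for slide 1 and triangles for slide 2. Hoxa2, Hoxa3 and Hoxb8 lie above 0 on every array by the chosen probe, 15 of those drawn lie below it on every array, and Hoxc9 is lowest.

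Of the genes above background on some arrays, Hoxb1, of the hindbrain, Hoxb13, of the prostate and tail, and Hoxc10, of the lumbar cord, missed only the vector DMSO array of slide 2. Their group means were -0.18 to 0.10 for Hoxb1, -2.19 to -1.60 for Hoxb13 and -3.81 to -3.12 for Hoxc10. Hoxd1, of sensory neurons, passed on 6 arrays with group means of 0.093 to 0.36. Hoxd10, of the lumbar cord and limb, passed on 5: both Jagged1 DMSO arrays and the slide 1 array of each other group. Hoxb2, Hoxd8 and Hoxd13 passed on the 4 slide 1 arrays and on no slide 2 array, at medians of -4.23, -4.01 and -0.71.

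Where a gene had further probes, they did not always show the same level. The other probe of Hoxd3 was above background on no array and that of Hoxd13 on none, against 8 and 4 for the chosen ones. Hoxc10 had 7 against 1 and Hoxb2 4 against 1, the latter with probes annotated to opposite strands. The level differed most for Hoxb8, at a median of 1.41 by the chosen probe and 0.044 by the other, which was above background on 7 arrays. Hoxd9 read -0.76 and -1.65, and Hoxa4 -0.43 and -0.0059, the second probe of each on 7 arrays. Hoxa3 had both probes on all 8 arrays on either side of the reference, at 0.15 and -0.13. Hoxb9 and Hoxb6 had both on all 8 arrays at nearer medians, -1.66 and -1.58 for Hoxb9 and -0.64 and -0.47 for Hoxb6. The count of Hox genes above background on all arrays is therefore a count for one choice of probe.

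To see whether tumour Jagged1 or gamma-secretase inhibition moved positional genes in the osteoblasts, 6 comparisons were fitted over all 23389 genes with enough signal, by limma with Benjamini-Hochberg adjustment. Of the Hox genes 32 were tested, and Hoxa11, Hoxb2, Hoxc8, Hoxc12, Hoxd8 and Hoxd13 were not, since no group had both arrays above background. No Hox gene passed an adjusted p of 0.05 in any of the 6 comparisons in this fit, which left out the slide. Among all genes tested, 0.0684% were called for Jagged1 in DMSO, 1.11% for MRK-003 with Jagged1, 0.894% for the average MRK-003 effect and 0% in the other 3. A count of 0 of 32 is near these shares. With 2 arrays a group, standard errors of single Hox genes in the comparisons of 2 groups were 0.13 to 0.56 on the log2 scale, which limits what could pass. These errors also hold any difference between the slides. With the replicate number, which is the slide, as a block, 1 Hox gene passed for Jagged1 in DMSO and 1 for MRK-003 with Jagged1. That block called 1.01% and 4.16% of all genes in those comparisons.

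With Jagged1 tumour cells in DMSO, 21 of the 32 Hox genes were higher and 11 lower, with a median difference of 0.085 against 0.012 for all genes tested. That median was 0.0059 with normexp and no local background and 0.0071 without the slide 2 array of vector DMSO. Hoxd4, Hoxa2, Hoxa13 and Hoxa5 had the smallest p. Hoxd4 differed by 0.85 ± 0.24 (SE from limma, 2 arrays in each group, adjusted p = 0.445), and by 0.59 on slide 1 and 1.11 on slide 2. Hoxa2 differed by -0.74 ± 0.24 (adjusted p = 0.529 by limma), and its difference was -0.70 on slide 1 and -0.78 on slide 2. Hoxa13 differed by 0.59 ± 0.20 (adjusted p = 0.534 by limma), of which 0.27 was seen on slide 1 and 0.91 on slide 2. Hoxa5 differed by -0.73 ± 0.28 (adjusted p = 0.626 by limma), with -0.56 and -0.91 on the slides. All 4 kept their direction on both slides, and of the 3 in the Hoxa cluster, Hoxa2 and Hoxa5 lay on the lower side and Hoxa13 on the higher. At an unadjusted p of 0.05, 4 of 32 Hox genes passed (12.5%), against 7.52% of all genes. Which share was larger depended on the setting. The Hox share was below that of all genes with normexp on the local background (3.12% against 8.13%) and with Cy3 alone (3.12% against 4.96%). It was above with normexp without local background (9.38% against 7.92%) and with the replicate block (25% against 17.6%). With genes above background on all 8 arrays it was 18.5% against 8.31%. Whether the shares differ was not tested.

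The replicate numbers paired the arrays through the slide, and with the replicate block in the fit the call for Hoxa2 changed. The Hoxa2 difference of -0.74 then had adjusted p = 0.0463 by limma, and it was the only one of the 32 to pass in this comparison, where 1.01% of all genes passed. Under the other ways of scaling the Hoxa2 difference was -0.47 to -0.95, always lower with Jagged1. With the mean signal corrected by normexp without local background, together with the block, Hoxa2 (-0.47, adjusted p = 0.0253 by limma) and Hoxa5 (-0.55, adjusted p = 0.0426) passed, where 3.96% of all genes did. That setting was chosen after the data were seen. For Hoxd4 the difference of 0.85 was 0.26 under that background correction, and for Hoxa13 0.59 was 0.22, and 0.05 with the local background. Both probes were dim, with mean Cy3 signals of 69.9 and 61.2, and the normexp offset of 50 by itself draws such differences toward 0.

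By cluster, 8 of 9 Hoxb genes, 5 of 6 Hoxc, 4 of 7 Hoxd and 4 of 10 Hoxa were higher with Jagged1 in DMSO, with medians of 0.20, 0.16, 0.081 and -0.20. The background correction changed this split. With normexp on the local background 7 of 10 Hoxa genes were higher (median 0.055), and 8 of 9 Hoxb, 6 of 6 Hoxc and 3 of 7 Hoxd. With normexp and no local background 7 of 9 Hoxb genes were higher (median 0.044), 3 of 6 Hoxc, 4 of 7 Hoxd and 3 of 10 Hoxa. The Hoxa median also depended on the probe, at -0.054 with the mean of all probes of a gene (4 of 10 higher). Hoxa4 differed by -0.35 by the chosen probe and by 0.75 by the other, which was above background on 7 arrays. In Hoxb, Hoxb3 differed by 0.75 ± 0.32, short of the threshold (adjusted p = 0.672 by limma), and by 0.35 to 0.80 under the other ways of scaling. Hoxb8 differed by 0.78 ± 0.37 (adjusted p = 0.698 by limma), but by -0.22 with normexp on the local background and by -0.19 by its other probe. The 2 groups did not overlap for 16 of 32 Hox genes (11 higher, 5 lower), against 42.4% of all genes. Markers of cell type were read in the same comparison. All 11 tested epithelial markers were higher in Jagged1 DMSO (median 0.32, none called by limma), and the summed processed Cy3 signal of 14 epithelial markers was 10710 to 20690 there and 8370 to 16380 in vector DMSO. Of 10 macrophage markers 6 were higher (median 0.19), and of 12 osteoblast markers 8 were lower (median -0.26), none called. Alpl, an enzyme of mineralisation, passed with the replicate block (-1.50, adjusted p = 0.0362 by limma), where 1.01% of all genes passed. The part of these differences in the Hox values was not tested.

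In MRK-003 the same comparison of tumour cells gave no gene called among all 23389, with 150 of them (0.641%) at an unadjusted p under 0.05. The Hox median was -0.018, with 14 genes higher and 18 lower, and 1 Hox gene at an unadjusted p under 0.05. That gene was Hoxd10, lower with Jagged1 by -0.67 ± 0.17 (adjusted p = 1 by limma). Hoxa13, Hoxd12 and Hoxb1 followed at -0.39 ± 0.20, -0.24 ± 0.13 and -0.22 ± 0.13 (adjusted p = 1 for each by limma). Hoxa2, lower with Jagged1 in DMSO, differed by 0.022 here. The groups did not overlap for 5 of 32 Hox genes, against 15.9% of all genes.

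**Figure D3:**
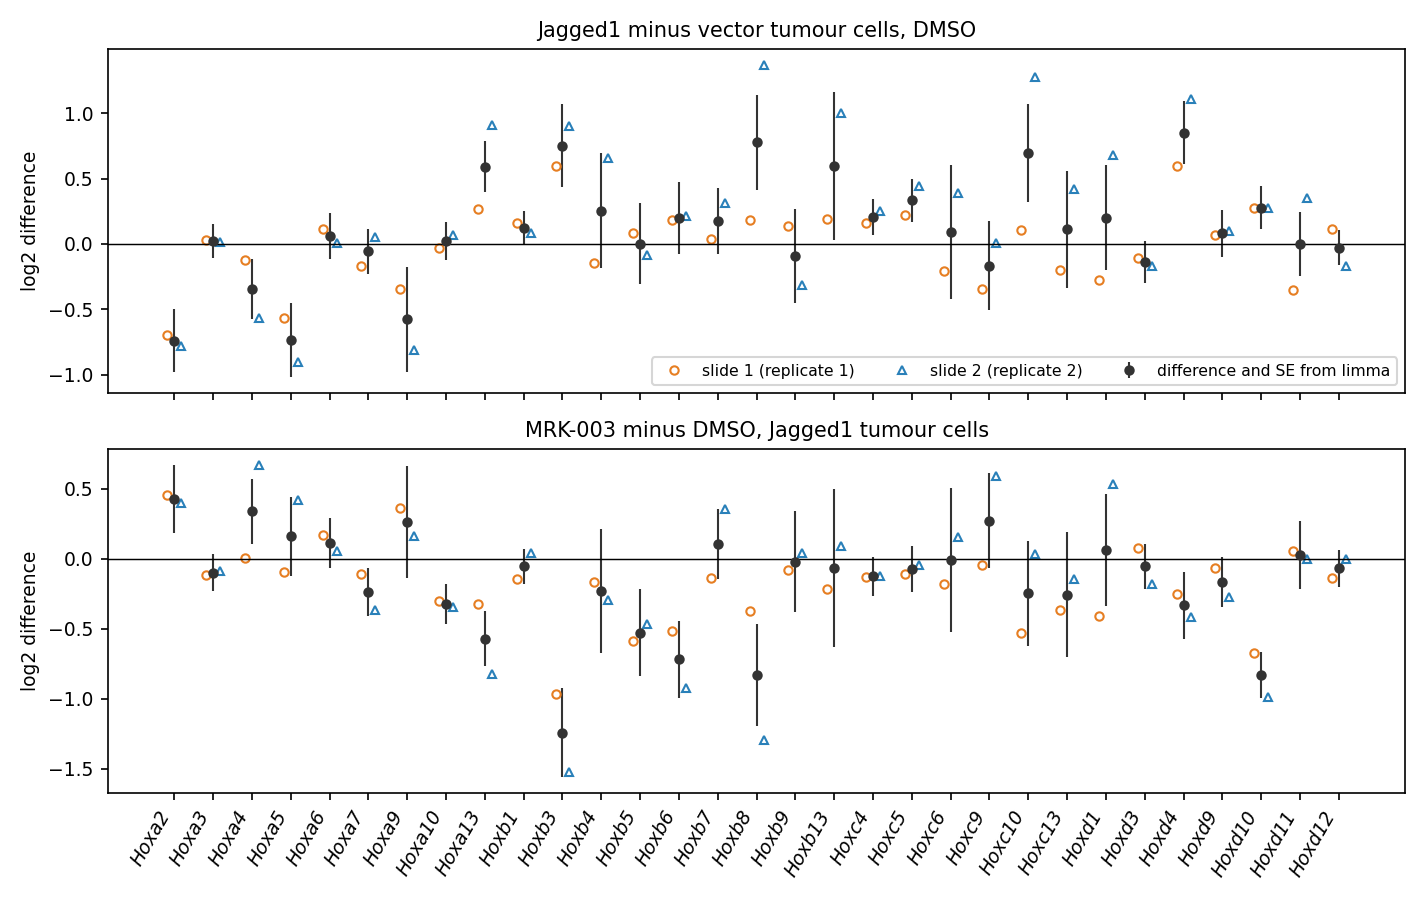
Log2 differences of 31 of the 32 tested Hox genes for Jagged1 minus vector tumour cells in DMSO (top) and MRK-003 minus DMSO with Jagged1 tumour cells (bottom). Filled circles are differences with the standard error from limma, open circles the slide 1 difference and open triangles the slide 2 difference. Hoxa2 is at -0.74 in the top panel, Hoxb3 at -1.24 in the bottom panel, and the 2 panels share the Jagged1 DMSO arrays with opposite sign.

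With MRK-003 in the Jagged1 co-cultures, 22 of the 32 Hox genes were lower and 10 higher, with a median of -0.073 against 0.012 for all genes. Hoxd10, Hoxb3, Hoxa13 and Hoxb6 had the smallest p, and all 4 were lower with the inhibitor. Hoxb3 differed by -1.24 ± 0.32 (SE, n = 2 per group), a 2.37-fold ratio and the largest of the Hox differences in this comparison, with adjusted p = 0.160 by limma. Its slide differences were -0.97 and -1.52. Hoxb6 differed by -0.72 ± 0.27 (adjusted p = 0.368 by limma), with -0.52 and -0.92 on the slides. Hoxa13 differed by -0.57 ± 0.20 (adjusted p = 0.311 by limma), with -0.32 and -0.82. The 2 arrays of each group did not overlap for these genes, as for 17 of 32 Hox genes (12 lower, 5 higher) and 45.1% of all genes.

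Hoxd10 had the smallest p, at -0.83 ± 0.17 (adjusted p = 0.0859 by limma), with -0.68 and -0.99 on the slides. Its levels were -0.43 and -0.24 in vector DMSO, -0.15 and 0.035 in Jagged1 DMSO, -0.069 and -0.37 in vector MRK-003 and -0.83 and -0.95 in Jagged1 MRK-003. Jagged1 DMSO was the only group with both arrays above background, and the gene entered the test through that group alone, so a difference in this direction was favoured by the filter. With normexp and no local background the difference was -0.22, where the offset of 50 by itself draws a dim probe (mean Cy3 signal 45.5) toward 0.

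With the replicate block, Hoxd10 was called (adjusted p = 0.0496 by limma) and Hoxb3 was not (adjusted p = 0.0575), where 4.16% of all genes were. Since Hoxd10 was tested only through the group where it is high, that call is given as a description. Without the block, normexp without local background gave a Hoxb3 difference of -0.69 that passed (adjusted p = 0.0414 by limma, 2.13% of all genes called). Both changes together called Hoxb3 (-0.69, adjusted p = 0.00732 by limma) and Hoxb6 (-0.63, adjusted p = 0.0376), against 9.77% of all genes. The direction of Hoxb3 was lower under every way of scaling, from -0.39 to -1.25. A further probe of Hoxb6 gave -0.28 in place of -0.72. For Hoxb8 the direction itself turned with the probe, from -0.83 to 0.15, and it was 0.036 with normexp on the local background.

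In the Hoxb cluster 8 of 9 genes were lower with MRK-003 in the Jagged1 co-cultures, with a median of -0.23, and 7 or 8 of 9 under the other ways of scaling. The counts were 5 of 6 for Hoxc (4 to 6 under the other ways of scaling), 5 of 7 for Hoxd (4 to 6) and 4 of 10 for Hoxa (3 to 7). With normexp on the local background 7 of 10 Hoxa genes were lower, with a median of -0.036 in place of 0.14. With the mean of all probes of a gene the Hoxa median was 0.039. Hoxa4 differed by 0.34 by the chosen probe and by -0.41 by the other. In the same comparison 9 of 11 epithelial markers were lower (median -0.18) and 8 of 12 osteoblast markers higher (median 0.20), with none of either called. Alpl passed with the replicate block (1.94, adjusted p = 0.00856 by limma), where 4.16% of all genes passed. The summed processed Cy3 signal of 14 epithelial markers was 10530 to 15170 in Jagged1 MRK-003 and 10710 to 20690 in Jagged1 DMSO. What part these marker differences have in the Hox values was not tested. Both this comparison and that of Jagged1 in DMSO use the same 2 Jagged1 DMSO arrays, so their values are not independent. Side by side, Hoxb3 was 0.75 with Jagged1 in DMSO and -1.24 with MRK-003, and Hoxb6 0.20 and -0.72. Hoxa2 was -0.74 and 0.43, and Hoxa5 -0.73 and 0.16.

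**Figure D4:**
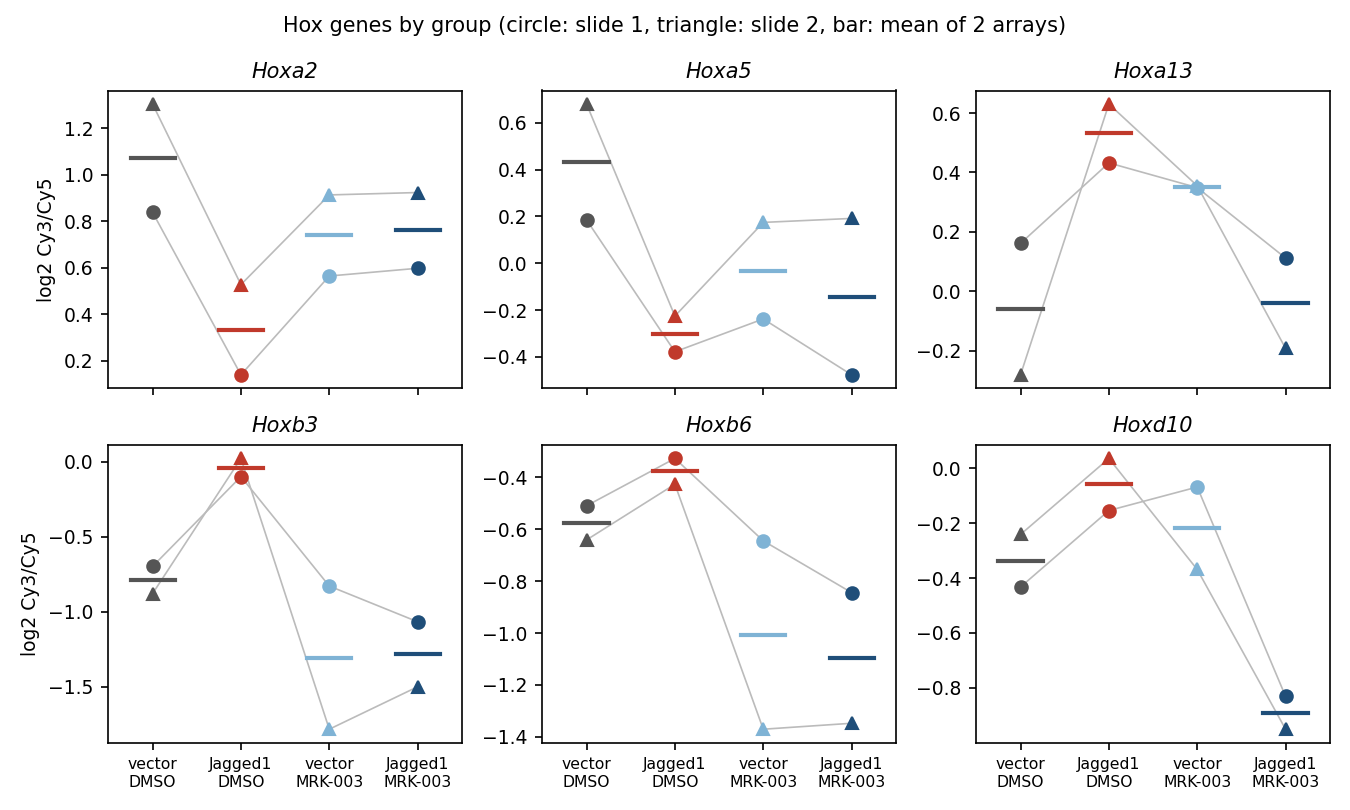
Log2 Cy3 over Cy5 of 6 Hox genes by group, with a circle for slide 1, a triangle for slide 2, a bar for the mean of 2 arrays and grey lines that join arrays of 1 slide. Each panel has its own vertical scale. Hoxa2 and Hoxa5 are higher in vector DMSO (means 1.07 and 0.43) than in Jagged1 DMSO (0.33 and -0.30), and Hoxb3 and Hoxb6 are highest in Jagged1 DMSO (-0.040 and -0.38).

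In the vector co-cultures MRK-003 gave no gene called among all 23389 (871, or 3.72%, at an unadjusted p under 0.05, none of them a Hox gene). The Hox median was -0.0041, with 15 higher and 17 lower. The smallest p were those of Hoxb1 (0.29 ± 0.13), Hoxa13 (0.41 ± 0.20), Hoxa7 (-0.34 ± 0.17) and Hoxa10 (-0.28 ± 0.15), with adjusted p = 0.995 for each by limma. Groups did not overlap for 9 of 32 Hox genes, against 26.8% of all genes.

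The interaction, the Jagged1 difference in DMSO minus that in MRK-003, called no gene among 23389 (890 at an unadjusted p under 0.05, or 3.81%) and 2 Hox genes lay under that p. Hoxd10 stood at 0.95 ± 0.23, Hoxa13 at 0.98 ± 0.28, Hoxa2 at -0.76 ± 0.34 and Hoxd4 at 0.67 ± 0.34, with adjusted p of 0.943 for Hoxd10 and 0.982 for the others by limma. The Jagged1 differences of these genes in DMSO and in MRK-003 were therefore not shown to differ. Hoxd10 was tested only through Jagged1 DMSO, where it is high, so the filter favoured the sign of its interaction and its value is a description. The average MRK-003 effect over both kinds of tumour cell had 6 of 32 Hox genes at an unadjusted p under 0.05 (18.8%, against 12.5% of all genes). It had 1 of 32 (3.12%, against 9.87%) with normexp on the local background, 3 of 32 with Cy3 alone, where both shares were 9.38%, and 2 to 5 of 32 without any 1 array, with 2 (6.25%) without the slide 2 array of vector DMSO (against 9.88%), of Jagged1 DMSO (7.94%) or of Jagged1 MRK-003 (7.87%). The 6 were Hoxb3 (-0.88 ± 0.22, adjusted p = 0.161 by limma), Hoxd10, Hoxb6 (-0.58), Hoxa10 (-0.30), Hoxb8 (-0.65) and Hoxb5 (-0.53), all lower with the inhibitor by the chosen probe. By its other probe Hoxb6 differed with MRK-003 by -0.28 in the Jagged1 and 0.052 in the vector co-cultures. The other Hoxb8 probe gave 0.15 and -0.12, so neither gene kept 1 direction by its other probe. For Hoxd10 the filter favoured that direction too, so its place among the 6 is a description. With the replicate block no Hox gene passed in this comparison, against 3.7% of all genes. With normexp and no local background Hoxb3 passed (-0.47, adjusted p = 0.049 by limma, 1.89% of all genes), and with both changes Hoxa10, Hoxb3, Hoxb5 and Hoxb6 did, against 9.14% of all genes.

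Genes that work with or upstream of Hox proteins were read from lists chosen with earlier results of these data known. The 9 TALE homeodomain cofactors, which bind DNA together with Hox proteins, were above background on all 8 arrays. None passed in any comparison, though with the replicate block Meis1 did for the average MRK-003 effect (-0.69, adjusted p = 0.121, and 0.0251 with the block, by limma). With MRK-003 in the Jagged1 co-cultures 8 of 9 were lower (median -0.18), with Meis3 at -0.68 ± 0.17 and Pbx3, the exception, at 0.69 ± 0.16 (adjusted p = 0.142 and 0.125 by limma). The 15 Polycomb genes, which keep Hox clusters silent, were above background throughout with none called. With MRK-003 and Jagged1, 10 of 15 were lower (median -0.13). The 3 with the smallest p were Phc2 (-0.44), Suz12, a core subunit (0.55 ± 0.17), and Ezh1, a methyltransferase (-1.12), with adjusted p of 0.228, 0.267 and 0.361 by limma. Of 7 trithorax and H3K27 demethylase genes, which act against that silencing, none passed, and Kdm6b, an H3K27 demethylase, differed by -1.48 ± 0.54 with MRK-003 and Jagged1 (adjusted p = 0.352, and 0.0411 with the replicate block, both by limma). With the block it also passed for the average MRK-003 effect (-1.01, adjusted p = 0.0486 by limma). The block called 4.16% of all genes for MRK-003 with Jagged1 and 3.7% for the average effect.

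Of 16 upstream regulators 11 were above background on all arrays and none of 12 tested was called. The Cdx genes, which switch on trunk Hox genes, passed the flag on 1 or 2 arrays each. Cyp26a1, which breaks down retinoic acid, differed by 1.37 ± 0.32 with MRK-003 and Jagged1 (adjusted p = 0.125 by limma), and passed with the replicate block for the average MRK-003 effect (1.12, adjusted p = 0.0935, and 0.0417 with the block, by limma). Of 20 factors that pattern the face and skull, 19 were found among the genes and 17 were above background on all 8 arrays. Twist1, a skull suture gene, was the 1 of 18 tested that passed with MRK-003 in the Jagged1 co-cultures, where 1.11% of all genes passed. It was higher by 1.14 ± 0.16 (adjusted p = 0.0353 by limma), while 9 of the 18 were higher and 9 lower. With the replicate block Msx1, a suture and tooth gene, passed too, at -0.79 (adjusted p = 0.0567, and 0.0278 with the block, by limma), and Twist1 also passed for Jagged1 in DMSO, at -0.78 (adjusted p = 0.236, and 0.0384 with the block, by limma). It read 0.81 and 1.02 in vector DMSO, 0.059 and 0.21 in Jagged1 DMSO, 1.23 and 1.44 in vector MRK-003 and 1.16 and 1.38 in Jagged1 MRK-003, so the Jagged1 DMSO arrays were the 2 lowest. For the average MRK-003 effect 1 of the 18 face and skull factors passed, on the higher side, where 0.894% of all genes passed. Among 15 limb and trunk factors, 11 were above background throughout and none of 12 tested passed. En1, which also acts in the skull roof, differed by -0.98 ± 0.16 for Jagged1 in DMSO and 0.94 ± 0.16 for MRK-003 with Jagged1 (adjusted p = 0.155 and 0.0581, and 0.0299 and 0.0126 with the replicate block, by limma). With the block Meox1, of the somites, passed for the average MRK-003 effect (-0.73, adjusted p = 0.0749, and 0.0438 with the block, by limma). The block called 1.01% of all genes for Jagged1 in DMSO, 4.16% for MRK-003 with Jagged1 and 3.7% for the average effect.

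RefSeq promoters were at hand for 22 of the Hox genes, with 24 start sites on build GRCm38.p6. In the 250 bases before the start, the Hox promoters held a median of 12.5 CG dinucleotides, with a range of 2 to 35, against 6 in 32851 promoters of all genes. Their median GC content was 58.6% against 52.4%. TGGGAA, the core letters bound by the Notch pathway factor RBPJ, was searched on both strands with no other motif. It was present in 4 of 24 Hox promoters (16.7%), those of Hoxa6, Hoxa9, Hoxa13 and Hoxd3, against 21.6% of all promoters. The Hoxa2 stretch is shown, as that of the member called with the replicate block for Jagged1 in DMSO, with every CG in capitals.
Hoxa2: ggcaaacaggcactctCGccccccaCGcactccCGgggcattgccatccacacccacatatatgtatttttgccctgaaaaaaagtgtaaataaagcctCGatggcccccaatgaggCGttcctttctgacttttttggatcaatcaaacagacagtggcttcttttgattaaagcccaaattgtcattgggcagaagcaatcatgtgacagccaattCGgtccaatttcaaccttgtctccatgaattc
It lies at chr6:52164832-52165081, minus strand, and holds 6 CG and no TGGGAA on either strand. A match is letters only, and no binding was measured.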

How the data were processed

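Total RNA of 8 co-cultures was amplified, labelled and hybridised to 8 two-colour Agilent mouse arrays, per the labels' protocols. Per the file headers, spots were read with Agilent Feature Extraction 9.5.3.1 on build mm7. The deposited intensity values were mean signals, local backgrounds and processed signals, which per the file headers the software had background-subtracted, with surrogates near background, and dye-normalized. The deposited log10 ratio, Cy5 over Cy3, per the file headers came from those signals. The authors' deposited log2 value table matched them but for 1 constant per array.

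Levels here are log2 of processed Cy3 over Cy5, centred on each array's median over probes that are not controls. Outlier-marked spots were left out, spots of a probe were averaged, and for Hoxb1, with 10 spots, a share of 0.5 counted. A gene was tested where both arrays of at least 1 group were well above background in Cy3. limma 3.58.1 in R 4.3.3 fitted 4 group means to the 8 arrays, and p-values were adjusted by Benjamini-Hochberg over all genes tested, with a threshold of 0.05. SE is from limma. The script was tested on simulated data. Deviations of same-numbered arrays correlated at 0.277 to 0.721 over 6 pairs of groups, so the replicate numbers, which are the slides, pair the arrays. With 2 arrays a group, their number limits the precision.

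All members but 1 are named by the rule, with every value for those on all 8 arrays. In comparisons the 4 with the smallest p are named. Of each list, members that passed and up to 3 with the smallest p were open to naming. The members and lists were chosen with earlier results of these data known. The values of 1 Hox gene and part of the probe sequences are not reported here, and that gene stays in the counts. Alternatives changed the background, scaling, channel, value source, filter, probe, outliers, block and samples. Both normexp settings added an offset of 50 to each channel, so levels and differences of dim probes are smaller there by the setting itself. Levels with normexp on the local background were not used as main values because that background reached 2414 to 32900 on 3 arrays, of which 2 were the Jagged1 DMSO arrays, and at most 349.5 on the others.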

Additional observations from a re-analysis of the deposited data

How the results depend on the processing

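The count of Hox genes called stayed at 0 in all 6 comparisons, except in 3 settings. The replicate block called 1 for Jagged1 in DMSO (Hoxa2) and 1 for MRK-003 with Jagged1 (Hoxd10, tested only through the group where it is high). Normexp without local background called 1 (Hoxb3) for MRK-003 with Jagged1 and 1 for the average MRK-003 effect. Both together, chosen after the data were seen, called 2 for Jagged1 in DMSO, 2 for MRK-003 with Jagged1 and 4 for the average effect. The block changed no other Hox call. Without any 1 array, 0 Hox genes were called in each comparison.

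Counts over all genes moved more, and their cause was not tested. For Jagged1 in DMSO the main 16 genes became 4 with normexp on the local background, 40 with normexp without it, 10 with Cy3 alone, 3 with no filter on dim probes, 27 with genes above background on all 8 arrays, 9 with the mean of all probes, 237 with the block, 926 with the block and normexp, and 0 with only the groups compared. For MRK-003 with Jagged1 the 260 became, for the same settings, 71, 499, 101 and 57, then 974 with the block, 2286 with the block and normexp, and 38 with only the groups compared. For the average effect the 209 became 70, 443, 83 and 49, then 866 and 2137. The interaction called 3 genes with normexp without local background, 2 above background on all arrays, 2 with the block and 78 with both changes, and MRK-003 with vector called 2 with both. Leaving out each array in turn gave 0 to 4 genes for Jagged1 in DMSO, 2 to 138 for MRK-003 with Jagged1 (fewest without the slide 1 array of Jagged1 DMSO) and 4 to 25 for the average effect.

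The Hoxa13 difference changed sign to 0.0062 for MRK-003 with Jagged1 under normexp on the local background, and to -0.17 for MRK-003 with vector with Cy3 alone. The median Hox level over the reference was -0.28 with normexp on the local background, against -0.54. By another detection flag, for signals positive and significant, 33 Hox genes passed on all 8 arrays. By the main flag, well above background, the count was 27 when any probe of a gene counted. No scaling moved the median of all genes by over 0.05. Dim signal limits all Hox values: on slide 2 fewer were above background.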
